A study of Mus musculus with 6 samples.

Results

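The genes described are Lyz1 and Lyz2, the 2 neighbouring lysozyme genes of mouse chromosome 10, out of 34755 genes on the array. They were taken by name, as all probes annotated to Lyz1 or Lyz2, and each gene had 1 probe and 1 spot on each of 6 arrays. The pair was chosen by its measured difference between the genotypes, high signal on the Dicer KO arrays and low signal on the Dicer WT arrays. Every Dicer KO against Dicer WT value below is therefore a description with no test.

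The arrays measured RNA from mouse bone marrow-derived macrophages, which are bone marrow cells grown for 7 days in medium that contains L929-conditioned supernatant. Dicer WT cells came from LysM-Cre/Dicerwt/wt/Apoe-/- mice and Dicer KO cells from LysM-Cre/Dicerflox/flox/Apoe-/- mice, so both groups carried LysM-Cre and lacked Apoe. The labels give males of 6 to 8 weeks for all samples. LysM-Cre drives the recombinase mainly in myeloid cells, where it inactivates floxed Dicer alleles, and Dicer cuts microRNA precursors into mature microRNAs. From each genotype 3 RNA fractions were hybridised, with 1 array each: input RNA of the cleared lysate, RNA precipitated for 7 hours with an anti-AGO2 antibody (AGO2-RIP), and RNA precipitated with control IgG (IgG-RIP). AGO2 is the Argonaute protein that carries microRNAs to their target mRNAs. With 1 array per group, no difference between 2 arrays has a replicate check, and fewer cells of a type cannot be told apart from less RNA per cell.

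Lysozyme is a secreted enzyme that cleaves the peptidoglycan of bacterial cell walls. The mouse has a duplicated gene for it: Lyz2 encodes the M form of macrophages and neutrophils, and Lyz1 encodes the P form, best known from the Paneth cells of the small intestine. In the LysM-Cre line the Cre coding sequence was placed at the start codon of Lyz2, so a Cre allele has no intact Lyz2. The labels do not give how many Cre copies the mice of either genotype carried, nor whether a transcript of the Cre allele extends to the probe on the array.

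The sequences that reported the 2 genes are shown first, because each gene rests on a single probe. The Lyz2 probe, annotated at chr10:116719175-116719234 (mm9, minus strand) and at base 94 of its transcript, holds no Alu I or Rsa I site. The Lyz1 probe, annotated at chr10:116724862-116724921 (mm9, minus strand) and at base 1194 of its transcript, holds 1 Rsa I site, and its stretch from base 31 to base 54 is shown with that site in capitals. Both enzymes were used to cut the cDNA before labelling.
Lyz2 probe: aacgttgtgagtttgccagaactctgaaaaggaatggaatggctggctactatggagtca
Lyz1 probe, site in capitals: cagtgaaaaaGTACaaatggcatt
An Rsa I site (GTAC) occurred in 12.9% of all 55681 probes and a site of either enzyme in 34.9%, so a cut inside a probe was common on this array. The part of the cut in the Lyz1 signal was not tested. The probes lie 5627 bases apart, and the longest run of bases they share is 6. They come from different parts of their transcripts, so that run does not show how either probe matches the other gene's transcript. Whether transcripts of either gene hybridised to the probe of the other was not tested.

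The 250 bases before the annotated start of each gene are shown because the pair of genes was high on the same arrays. They were taken from RefSeq on GRCm38.p6, at chr10:117292869-117293118 for Lyz1 and chr10:117282273-117282522 for Lyz2, both on the minus strand. Capitals mark matches to 3 short motifs that were chosen after the sequences were seen.
Lyz1 promoter: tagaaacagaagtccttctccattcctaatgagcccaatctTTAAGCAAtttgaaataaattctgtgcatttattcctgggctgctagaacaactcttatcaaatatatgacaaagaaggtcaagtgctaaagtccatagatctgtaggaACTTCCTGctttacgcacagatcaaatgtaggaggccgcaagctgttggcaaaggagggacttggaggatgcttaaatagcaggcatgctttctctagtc
Lyz2 promoter: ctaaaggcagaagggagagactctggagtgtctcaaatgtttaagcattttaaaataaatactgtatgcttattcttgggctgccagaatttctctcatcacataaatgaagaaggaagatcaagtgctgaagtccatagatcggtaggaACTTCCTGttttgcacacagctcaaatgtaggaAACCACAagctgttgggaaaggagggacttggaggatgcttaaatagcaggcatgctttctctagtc
The promoters were identical at 200 aligned positions (79.4%), with 48 mismatches and 4 gaps. Of the last 100 bases before the start 92 were identical, and of the first 50 bases after it 49 were. CAGGAAGT, of the type bound by ETS factors such as PU.1, was found in both promoters 100 bases before the start, on the opposite strand. AACCACA, of the type bound by RUNX factors, was found only in the Lyz2 promoter, 67 bases before the start. TTGCNNAA, of the type bound by C/EBP factors, was found only in the Lyz1 promoter, 209 bases before the start, on the opposite strand. Searched on both strands, with no overlap among the matches shown, the 3 motifs occurred in 2.69%, 4.40% and 9.56% of 32851 promoters of the same length. A match describes letters and not a bound site.

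The array values are spot intensities with the scanner software's own error, and on the log2 scale they are set against the 75th percentile of the array, so that 0 equals that percentile. A spot counted as measured where the software flagged it as well above background. On the 6 arrays 37.6% to 46.3% of 59305 spots were, no spot was saturated (0 on each array), and spots of probes printed 10 times varied with an SD of 0.14 to 0.17 (log2). All 10 macrophage markers, among them Csf1r, Adgre1 and Cd68, were well above background on every array, with a summed level of 950 to 1657 times the 75th percentile. Genotype went with slide row, and it went with sex-linked RNA against the labels: Xist was well above background on the 3 Dicer WT arrays and on none of the Dicer KO arrays, and the Y-linked Ddx3y on the 3 Dicer KO arrays and on none of the Dicer WT arrays. The effects of Dicer loss, of slide row and of the sex or source of the cells cannot be told apart.

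Lyz1 signal on the Dicer WT arrays was 103 ± 11.5 in input, 62.4 ± 7.87 after AGO2-RIP and 18.5 ± 4.92 after IgG-RIP (intensity ± scanner error). On the Dicer KO arrays Lyz1 signal was 6980 ± 698 in input, 4396 ± 440 after AGO2-RIP and 3253 ± 325 after IgG-RIP. Each Dicer KO value was above each Dicer WT value, and the Dicer WT IgG-RIP spot was not well above background.

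Lyz2 signal on the Dicer WT arrays was 17.0 ± 4.66 in input, 5.61 ± 4.05 after AGO2-RIP and 34.3 ± 5.33 after IgG-RIP. On the Dicer KO arrays Lyz2 signal was 4716 ± 472 in input, 1255 ± 126 after AGO2-RIP and 1321 ± 132 after IgG-RIP. The Dicer KO values again lay above the Dicer WT values without overlap, as for 1.62% of the 14023 genes compared in this way. Of the Dicer WT spots only the IgG-RIP spot was well above background, and the input and AGO2-RIP spots lay below the 99th percentile of the negative control spots of their arrays (20.1 and 5.92). On the Dicer WT input array that percentile was higher than on the other arrays (4.69 to 7.86), and the negative control median was 4.51. The software also flagged the Lyz2 spot there as positive and significant. The macrophage lysozyme was thus dim in Dicer WT input, on an array where all 10 macrophage markers were measured.

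**Figure D1:**
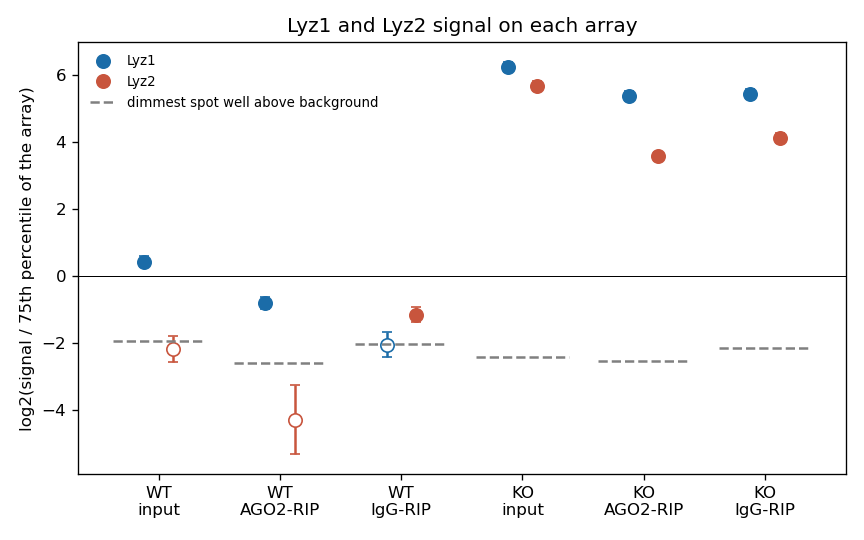
Lyz1 and Lyz2 signal on each of the 6 arrays, as log2 of the signal over the array's 75th percentile; points are single spots, bars the scanner error, open points spots not well above background, and dashes the dimmest spot well above background on that array. All Dicer KO points lie above 3.5 and all Dicer WT points below 0.5.

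On the log2 scale relative to the 75th percentile, Lyz1 stood at 6.23 in Dicer KO input, 5.41 in IgG-RIP and 5.36 in AGO2-RIP, then on the Dicer WT arrays at 0.42 in input, -0.82 after AGO2-RIP and -2.06 after IgG-RIP. The neighbouring Dicer KO IgG-RIP and AGO2-RIP levels differed by 0.049, less than the scanner error of the difference (0.20). Lyz2 stood at 5.66 in Dicer KO input, 4.11 in IgG-RIP and 3.56 in AGO2-RIP, then at -1.16 in Dicer WT IgG-RIP, -2.19 in input and -4.30 in AGO2-RIP. The order among the 3 Dicer KO fractions was the same for both genes here, but for Lyz1 it turned under other settings: AGO2-RIP was 0.19 above IgG-RIP with normexp, and IgG-RIP 0.011 above input with quantile normalization. The Dicer WT order differed between the genes. For Lyz2 it rested on dim input and AGO2-RIP spots, while for Lyz1 only the IgG-RIP spot was dim. The step from the lowest Dicer KO to the highest Dicer WT array was 4.94 for Lyz1 (30.8-fold) and 4.72 for Lyz2 (26.4-fold).

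In Dicer KO input against Dicer WT input, Lyz1 was 56.1-fold higher (5.81 on the log2 scale, scanner error 0.22). Lyz2 was at least 195-fold higher there (7.61), where the dim Dicer WT spot gives only a bound. Lyz2 was at rank 1 and Lyz1 at rank 2 of 16115 genes with a value in that comparison, where genes with a dim spot are ranked by their bounds. In AGO2-RIP, Lyz1 was 72.8-fold higher in Dicer KO (6.19, scanner error 0.23) and Lyz2 at least 72.3-fold (6.18), ranks 1 and 2 of 19268. In IgG-RIP, Lyz1 was at least 174-fold higher (7.44) and Lyz2 38.8-fold (5.28, scanner error 0.27), ranks 1 and 4 of 18589, with Scfd2, a vesicle transport gene, and Synb, an envelope gene of retroviral origin, between them. With dim spots at their own values instead, Lyz1 was at ranks 3, 4 and 1 and Lyz2 at ranks 1, 1 and 26 in input, AGO2-RIP and IgG-RIP, so the order among the highest genes is not settled. Of all genes with a value, 1.41%, 8.78% and 12.9% were at least 2-fold higher in Dicer KO in input, AGO2-RIP and IgG-RIP, and 3.06%, 11.2% and 12.1% at least 2-fold lower. Since this contrast chose the pair, nothing is read from their 2 of 2 in each fraction. With normexp background correction the differences fell to 5.17, 5.20 and 5.29 for Lyz1 and to 5.78, 4.17 and 3.83 for Lyz2 in the order of fractions above.

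**Figure D2:**
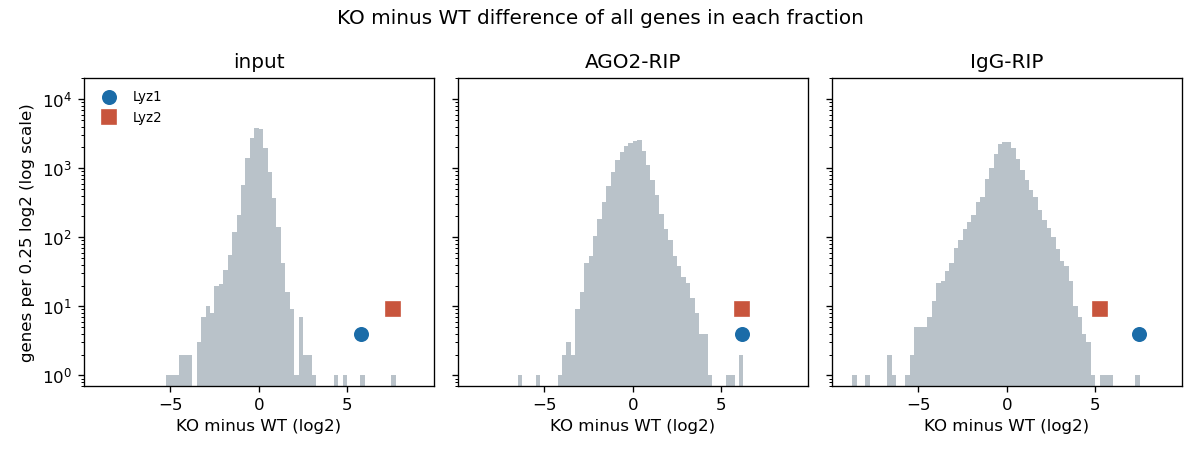
Dicer KO minus Dicer WT difference (log2) of all genes with a value, 1 panel per fraction; grey bars count genes on a log axis, and the markers show Lyz1 and Lyz2 at their difference, at an arbitrary height. Both genes lie in the right tail in each fraction, from 5.28 to 7.61.

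Every Dicer KO value lay above every Dicer WT value for 227 of 14023 genes (1.62%). The reverse order was found for 242 of 13133 genes (1.84%). A gap of at least 2-fold between all Dicer KO and all Dicer WT arrays was rarer. Of 14023 genes well above background on the 3 Dicer KO arrays, 8 (0.0570%) had every Dicer KO value at least 2-fold above every Dicer WT value, both lysozyme genes among them. The pair was chosen by this contrast, so nothing is read from its place among the 8. Genes entered this count through the Dicer KO arrays alone, and the 3 fractions of a genotype are not replicates. The gap of Synb was at least 4.77, and those of the Y-linked Ddx3y and Eif2s3y at least 2.46 and 1.31, all bounds set by dim Dicer WT spots, so their order against Lyz1 and Lyz2 is not settled. In the other direction 6 of 13133 genes (0.0457%) had such a gap, among them Xist and the paired receptor genes Pilrb2 and Pilra. Profiles over the 6 arrays were compared among 17565 genes well above background on at least 3 arrays, which the Dicer KO arrays alone can satisfy. The profile most like that of Lyz1 was that of Ddx3y, an RNA helicase gene. Its root mean square difference of centred log2 values was 1.05, with Pearson r = 0.96. Synb (1.17, r = 0.94), Lyz2 (1.41, r = 0.92), Eif2s3y (1.67, r = 0.92) and the glucokinase gene Adpgk (1.88, r = 0.91) came next. For Lyz2 the nearest profiles were those of Synb (1.37, r = 0.93), Ddx3y (1.40, r = 0.95), Lyz1 (1.41, r = 0.92), Eif2s3y (1.70, r = 0.99) and Klhl6 (2.41, r = 0.87). These likenesses describe 6 arrays that share the genotype split by which the pair was chosen, so nothing is read from them. The values of Synb, Ddx3y, Eif2s3y and Klhl6 on all Dicer WT arrays were not well above background.

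In Dicer KO cells, where both genes were bright, neither had a relative level in AGO2-RIP above that in IgG-RIP by more than the scanner error. RNA was amplified and each array scaled to itself, so the amount of either RNA held by each antibody was not tested. On that relative scale, Lyz1 differed between Dicer KO AGO2-RIP and IgG-RIP by -0.049 (scanner error 0.20). Lyz2 was 1.47-fold lower in Dicer KO AGO2-RIP (-0.56, scanner error 0.20). The median of all genes measured in that comparison was -0.19 in Dicer KO and -0.24 in Dicer WT. In Dicer WT cells, Lyz1 was higher in AGO2-RIP by at least 2.31-fold (1.21) and Lyz2 at least 2.74-fold lower (-1.46), each set against a spot not well above background. Past 2-fold in that comparison were 21.6% of genes on the higher and 24.7% on the lower side in Dicer WT, and 13.0% and 11.4% in Dicer KO. In Dicer WT the single members past 2-fold thus stood among large shares of all genes, and with normexp neither bound reached 2-fold (0.28 for Lyz1 and -0.69 for Lyz2). With the array median 5119 genes were past 2-fold higher and 2860 lower in Dicer WT, in place of 4018 and 4599.

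Against input, both genes had lower relative levels in the precipitates of Dicer KO cells. In AGO2-RIP Lyz1 was 1.82-fold lower than in input (-0.87, scanner error 0.20) and Lyz2 4.31-fold lower (-2.11, scanner error 0.20). In IgG-RIP Lyz1 was 1.76-fold lower (-0.82) and Lyz2 2.93-fold lower (-1.55), so the fall from input was larger for Lyz2 in both precipitates. In Dicer KO AGO2-RIP 23.6% of genes were at least 2-fold lower than input and 17.9% higher, and in Dicer KO IgG-RIP 26.9% and 21.8%. The medians of all genes measured were -0.24 and -0.26. With quantile normalization the Lyz1 differences were near 0 (-0.018 and 0.011), while those of Lyz2 were then -1.37 and -0.77.

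In Dicer WT cells, Lyz1 was 2.36-fold lower in AGO2-RIP than in input (-1.24, scanner error 0.24) and at least 5.47-fold lower in IgG-RIP (-2.45). The latter bound moved to -1.01 with normexp. In Dicer WT AGO2-RIP 25.6% of genes were at least 2-fold lower than input and 16.6% higher, and in Dicer WT IgG-RIP 32.5% and 22.8%. The medians of all genes measured were -0.24 and -0.45. Lyz2 had no AGO2-RIP to input ratio because both spots were dim, and it was at least 1.72-fold higher in IgG-RIP than in input (0.78). That bound was 0.20 with the array median, 0.27 with normexp and 0.42 with quantile normalization.

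**Figure D3:**
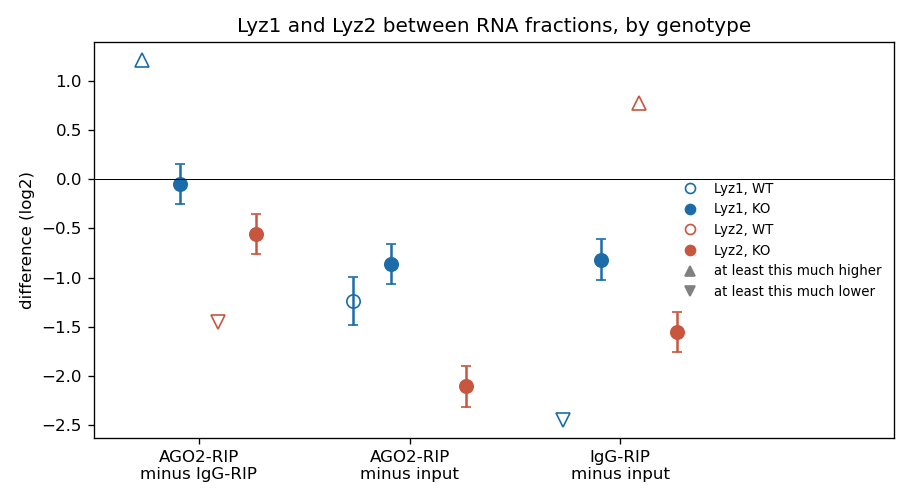
Differences between RNA fractions (log2) of Lyz1 and Lyz2 within each genotype; filled symbols are Dicer KO, open symbols Dicer WT, bars the scanner error of measured differences, and triangles bounds set by a dim spot. The filled Dicer KO points lie between -2.11 and -0.049, and the missing point is Lyz2 in Dicer WT AGO2-RIP against input, where both spots were dim.

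Over both genotypes the fractions were tested with limma on 18888 genes, with the genotype by fraction interaction as the error and Benjamini-Hochberg adjustment. Lyz1 differed by 0.59 ± 0.53 (SE) between AGO2-RIP and IgG-RIP (limma adjusted p = 0.517), by -1.05 ± 0.53 between AGO2-RIP and input (adjusted p = 0.227) and by -1.65 ± 0.53 between IgG-RIP and input (adjusted p = 0.0665). Lyz2 differed by -1.84 ± 0.74 between AGO2-RIP and IgG-RIP (limma adjusted p = 0.270), by -2.11 ± 0.74 between AGO2-RIP and input (adjusted p = 0.118) and by -0.26 ± 0.74 between IgG-RIP and input (adjusted p = 0.796). None of the 6 differences passed 0.05, against 0.0%, 10.2% and 30.2% of all genes in the 3 comparisons. For AGO2-RIP against IgG-RIP limma thus called 0 genes, with 3554 at an unadjusted p under 0.05. The Lyz2 estimates draw on Dicer WT input and AGO2-RIP spots that were not well above background.

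Single arrays moved these calls. Without the Dicer KO IgG-RIP array Lyz1 passed for IgG-RIP against input (-2.38, limma adjusted p = 0.0217, range over all alternatives 0.0217 to 0.414), and Lyz2 for AGO2-RIP against IgG-RIP (-3.13, limma adjusted p = 0.0448, range 0.0448 to 0.794). Without either IgG-RIP array Lyz2 passed for AGO2-RIP against input (limma adjusted p = 0.0217, range 0.0217 to 0.511). In those fits a lone array is assumed to vary like the other groups.

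Of the other 8 members of the lysozyme family list, 2 had a value between genotypes in input and none was past 2-fold. Of all genes 1.41% were past 2-fold higher there and 3.06% lower. Lyzl4, a sperm-associated lysozyme-like gene, was well above background on all 6 arrays, at -0.03, 0.76 and -0.37 in Dicer WT input, AGO2-RIP and IgG-RIP and at -0.49, 0.19 and 0.66 in Dicer KO. It was 0.46 lower (log2) in Dicer KO input, 0.57 lower in AGO2-RIP and 1.03 higher in IgG-RIP. Lalba, which encodes the milk protein alpha-lactalbumin, was above background on 3 arrays and had a bound of 0.75 in input. Lyzl1, Lyzl6, Spaca3, Spaca5, Lyg1 and Lyg2 were above background on 0 arrays. In the family, only Lyz1 and Lyz2 were past 2-fold in input and AGO2-RIP, and Lyzl4 was so in IgG-RIP too.

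Features around the lysozyme pair were also read in input, without comparison to the pair, which was chosen by its genotype difference. Of 24 other annotated features with a probe within 500 kb, 13 were measured there and 0 were past 2-fold. Over all genes 1.41% were past 2-fold higher and 3.06% lower, so with 13 features nothing is read from that count. The measured features had a median Dicer KO minus Dicer WT difference of -0.06 (all genes: -0.08) and a range from -0.83 to 0.54. The closest measured neighbours were Yeats4, which encodes a chromatin reader, at -61.7 kb from the Lyz2 probe (-0.19), and Cpsf6, which encodes an mRNA 3′ processing factor, at 76.9 kb (-0.13). Farther out were the chaperonin subunit gene Cct2 (0.17), the receptor adaptor gene Frs2 (0.44), Rab3ip (-0.30), 4933412E12Rik (-0.83), the p53 regulator gene Mdm2 (-0.58) and the nuclear pore gene Nup107 (0.41). The closest feature, 9530003J23Rik at -48.4 kb, was above background on 0 arrays, as were Cpm and Slc35e3. The remaining 5 measured features have no assigned gene symbol and lay between -0.17 and 0.54. Several of them were probed between 312.8 and 313.8 kb from the Lyz2 probe, some at the same coordinates. The 13 features are therefore not all separate genes.

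In the precipitates the neighbours spread more widely, as all genes did. In AGO2-RIP 1 of 13 was past 2-fold higher in Dicer KO (4933412E12Rik, 1.00) and 3 were lower (Rab3ip -2.46, Frs2 -1.44, Yeats4 -1.36), beside 8.78% and 11.2% of all genes. In IgG-RIP 3 of 12 were past 2-fold higher (Yeats4 1.67, 4933412E12Rik 1.61, Frs2 1.08) and 1 was lower (Cpsf6 -1.08), beside 12.9% and 12.1% of all genes. The SD of the difference over all measured genes was 0.44 in input, against 0.77 and 0.88 in AGO2-RIP and IgG-RIP. Of the neighbours past 2-fold in both precipitates, Frs2 and Yeats4 turned direction and 4933412E12Rik did not. Lyz1 and Lyz2 were chosen by their genotype difference, so their direction over the 3 fractions is not set against that of the neighbours.

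**Figure D4:**
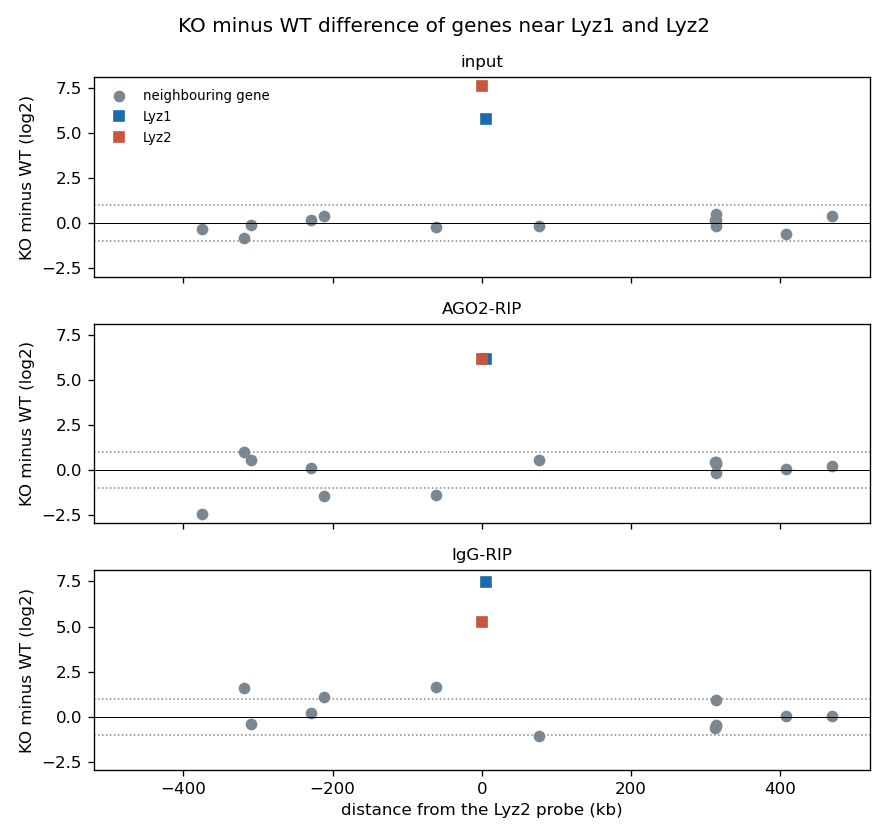
Dicer KO minus Dicer WT difference (log2) of genes near the lysozyme pair against the distance of their probe from the Lyz2 probe in kb, in input, AGO2-RIP and IgG-RIP; dotted lines mark 2-fold. In input the 13 neighbours lie between -0.83 and 0.54, and the lysozyme points at 5.81 and 7.61.

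No other host-defence gene measured from the lists below was past 2-fold higher in Dicer KO input. Of all genes 1.41% were past 2-fold higher there and 3.06% lower, so with so few genes nothing is read from these counts. Among 13 peptidoglycan sensing genes, which detect the products that lysozyme releases, 6 were measured and 0 were past 2-fold, with a median of 0.01. The transporter gene Slc46a3 (0.95) and the receptor gene Nod1 (0.73) were highest, and Slc15a3 (-0.36) and Tlr2 (-0.25) lowest. Among 15 phagocyte antimicrobial genes, 10 were measured with a median of -0.04. Of 13 with a value, bounds included, 0 were past 2-fold higher and 1 was lower. That was the protease inhibitor gene Slpi (a bound of -1.09 on the log2 scale, -0.51 with normexp and -0.96 with quantile normalization). The NADPH oxidase gene Cybb (-0.93) and the GTPase gene Rac2 (-0.25) were the lowest measured, while Irgm1 (0.62) and Ncf1 (0.42) were highest. All genes measured in input had a median of -0.08.

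Transcription factors of the myeloid lineage, some of which bind motifs of the types searched above, were measured for 10 of 13 genes in input, with a median of -0.11. None was past 2-fold higher, and Klf4 (-1.09) and Cebpb (-1.04) were past 2-fold lower, beside 1.41% of all genes higher and 3.06% lower. With normexp they were at -0.62 and -0.93 and with quantile normalization at -0.98 and -0.78, so neither was then past 2-fold. Maf (0.71) and Cebpa (0.51) were highest, and Spi1, which encodes PU.1, was at -0.31. Runx1 was at -0.17 and Gabpa, an ETS factor gene, at 0.11; Spi1, Runx1 and Gabpa are named for their motifs, after their values were seen.

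No measured marker of neutrophils or Paneth cells, which also make lysozyme, was past 2-fold higher in Dicer KO input. That rests on 4 neutrophil and 2 Paneth cell markers measured in both inputs, beside 1.41% of all genes higher and 3.06% lower. With so few markers nothing is read from that count, and the cell source of the lysozyme signal was not tested. Of 14 neutrophil markers, 2 to 5 per array were well above background, with a summed level of 6.59 to 13.8 times the 75th percentile on the Dicer WT arrays and 4.86 to 9.27 on the Dicer KO arrays. The granule genes Mpo, Elane, Prtn3, Ctsg, Ngp and Ltf and the markers Retnlg, Cxcr2 and Ly6g were above background on 0 arrays. In input S100a9 (-1.42, but -0.57 with normexp) was past 2-fold lower in Dicer KO, Mmp8 was at -0.92, Lcn2 at -0.49 and S100a8 at -0.23. In AGO2-RIP 0 of 5 neutrophil markers with a value were past 2-fold higher and 2 lower, beside 8.78% and 11.2% of all genes. In IgG-RIP 1 of 3 was higher (Mmp8, 1.88) and 1 lower (Lcn2, -1.57), beside 12.9% and 12.1%. Of 6 Paneth cell markers on the array, Defa1 and Ang4 were well above background on all 6 arrays, at 0.54 and 0.64 in Dicer KO minus Dicer WT input, and Mmp7, Reg3g, Itln1 and Pla2g2a on 0 arrays. Their summed level was 1.93 to 2.92 times the 75th percentile on the Dicer WT arrays and 2.18 to 4.19 on the Dicer KO arrays. The macrophage markers had a median of -0.05 in input, with 0 of 10 past 2-fold, Fcgr1 (0.67) and Mertk (0.46) highest and Cd14 (-0.89) and Lgals3 (-0.59) lowest.

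The genes altered by design were read on the same arrays. Dicer1 was at 0.22, 0.93 and 0.18 in Dicer WT input, AGO2-RIP and IgG-RIP, and at -0.55, 0.94 and -2.24 in Dicer KO, the last not well above background. Its difference in input was -0.77, and the labels do not say whether its probe lies in the floxed part, so it does not check the labels. Apoe, inactivated in both genotypes, was at 0.17, -0.83 and 0.56 in Dicer WT and at -0.01, -0.79 and 1.20 in Dicer KO, a difference of -0.18 in input. Neither of these genes differed between the inputs by 2-fold.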

How the data were processed

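Scanner output of 6 one-colour Cy3 arrays, 1 per genotype and fraction, came from Agilent Feature Extraction, whose version the submitters' processing notes give as 10.7.3.1. The signal used is, per the file headers, a background-subtracted intensity on a linear scale, which the authors deposited without normalization between arrays. Per the labels' protocols, RNA was pre-amplified, and 500 ng of cDNA was digested with 2 restriction enzymes (Alu I, Rsa I) and labelled by random priming, so all values are relative abundances.

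Values are log2 intensities from which the 75th percentile of the array (59305 non-control spots) was subtracted. Outlier spots were dropped, spots of a probe averaged (54 of the probes had no clean spot on some array), and a gene was read from its probe with the highest mean signal (55627 probes). Names were updated through RefSeq (GRCm38.p6): 27656 probes by accession, 3401 by symbol and 321 by synonym, with 24303 left as on the array. Where 1 of 2 spots was not well above background, the bright value was set against the dim spot or, if higher, the dimmest spot of its array that was well above background, giving "at least". Fraction differences were tested with limma 3.58.1 (lmFit, eBayes; fraction plus genotype) in R 4.3.3, keeping genes above background on 2 arrays or more. Other steps used Python 3.11.15, pandas 2.3.3 and numpy 2.4.6. The procedures were tested on simulated data. Nothing says whether samples came from separate animals, so p-values measure only the spread between these samples. The precision is limited by the number of arrays.

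The members, lists, tests and naming rule (list members named are those measured highest and lowest, or past 2-fold, in Dicer KO minus Dicer WT input) were chosen with earlier results of these data known. Alternatives were the background correction, scaling, filter, probe rule, variance prior, window and leaving out each array. All 6 arrays lay on 1 slide, each genotype on 1 slide row.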

Additional observations from a re-analysis of the deposited data

Results flagged for a closer look

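In Dicer WT cells Lyz1 in AGO2-RIP exceeded IgG-RIP by at least 1.21 (log2), and in Dicer KO cells it differed by -0.049, within the scanner error of 0.20. The 2 values differ in sign, but the Dicer KO value has no direction beyond its error, and with normexp both were positive (0.28 and 0.19). With 1 array per group the difference between the genotypes was not tested, and the Dicer WT bound rests on an IgG-RIP spot of 18.5 ± 4.92 that was not well above background. Lyz2 was at least 0.78 higher in IgG-RIP than in input in Dicer WT cells and changed by -1.55 in Dicer KO cells, which are opposite ways, and the difference was not tested. The Dicer WT input spot behind that bound read 17.0 ± 4.66, and the bound was 0.20 with the array median, 0.27 with normexp and 0.42 with quantile normalization.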

How the results depend on the processing

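Lyz1 and Lyz2 stayed higher in Dicer KO in every fraction under each scaling and background correction tried. With normexp Lyz1 stood at 5.17, 5.20 and 5.29 (input, AGO2-RIP, IgG-RIP) and Lyz2 at 5.78 in input and 3.83 in IgG-RIP, and with quantile normalization Lyz1 stood at 5.37 in input. With normexp the Dicer WT values of Lyz1 were 0.28 for AGO2-RIP minus IgG-RIP, -0.74 for AGO2-RIP minus input and -1.01 for IgG-RIP minus input. In Dicer KO, AGO2-RIP minus input of Lyz1 and Lyz2 was -1.37 and -2.61 with the array median, -0.31 and -1.55 with the 75th percentile over probes above background on all arrays, and -0.018 and -1.37 with quantile normalization. IgG-RIP minus input was then -1.30 and -2.04, -0.24 and -0.97, and 0.011 and -0.77. The median of a gene's probes gave the same member values, since each has 1 probe, and for the same reason no other probe could be tried. The plain difference in place of a bound, added after seeing the data, moved the Lyz2 values to 7.85 in both input and AGO2-RIP.

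For AGO2-RIP minus IgG-RIP, limma called 263 genes with normexp, 578 when genes had to be above background on all 6 arrays and 394 with an intensity trend, against 0 before, and 0 to 526 when single arrays were left out. For AGO2-RIP minus input, 1934 became 3640 with normexp, 0 with quantile normalization (5480 at an unadjusted p under 0.05), 3711 on all 6 arrays, 1028 with no filter, 3614 with the trend, and 0 to 4658 without single arrays. For IgG-RIP minus input, 5698 became 3291 with quantile normalization and 0 to 7296 without single arrays. The split moved with scaling: for AGO2-RIP minus input 844 were higher and 1090 lower at first, 605 and 1990 with the median, and 1208 and 2432 with normexp. For IgG-RIP minus input 2705 were higher and 2993 lower, 1857 and 5002 with the median, 2022 and 1269 with quantile normalization, and 2127 and 3894 with normexp. Lyz1 passed for IgG-RIP minus input with normexp (-0.95, limma adjusted p = 0.0218), the median (-2.18, 0.0386) and the trend (0.0327). Without single arrays Lyz1 ran from -0.14 (without Dicer WT IgG-RIP) to 1.33 for AGO2-RIP minus IgG-RIP, and Lyz2 from -1.55 to 1.02 for IgG-RIP minus input, at 0.38 without Dicer KO input and 1.02 without Dicer KO IgG-RIP. Requiring all 6 arrays removed both members. The causes were not tested.

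Genes past 2-fold in Dicer KO against Dicer WT numbered 227 higher and 493 lower in input, 51 and 92 with normexp, 107 and 137 on all 6 arrays, and 1391 and 2169 with no filter. In AGO2-RIP 1692 and 2163 became 411 and 1024, 585 and 1299, and 3786 and 3641, and in IgG-RIP 2392 and 2243 became 1020 and 720, 1443 and 976, and 4096 and 4391. Between fractions, moves over 1.5 times were as follows. AGO2-RIP minus IgG-RIP in Dicer WT, 4018 higher and 4599 lower, became 2948 and 1420 (normexp), 5119 and 2860 (median), 2906 and 2198 (all 6 arrays) and 5388 and 7352 (no filter), so the larger side turned in the first 3. In Dicer KO 2418 higher and 2125 lower became 1174 and 593, 1381 and 972 (all 6 arrays), and 4098 and 4278. AGO2-RIP minus input in Dicer WT, 2851 higher and 4395 lower, became 1791 and 2525 with normexp, and the higher count 1852 and 4983 on all 6 arrays and with no filter. In Dicer KO 3416 and 4499 became 1638 and 2866 with normexp and 1915 and 7124 with the median, and the higher count 1710 and 6101. IgG-RIP minus input, higher, went from 4240 in Dicer WT to 2121 (normexp), 2547 (median), 2331 and 7415, and from 4037 in Dicer KO to 1738, 2435, 1990 and 7004.

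Members past 2-fold over the gene lists without the lysozyme family and sex-linked genes numbered 4 in input, 0 with normexp, 1 (S100a9) with quantile normalization, 1 on all 6 arrays and 13 with no filter. In AGO2-RIP 14 became 6, 8 (all 6 arrays) and 27, and in IgG-RIP 16 became 9 with normexp and 29 with no filter. Neighbours past 2-fold went from 0 to 1 in input and from 4 to 10 in AGO2-RIP with no filter, and in IgG-RIP from 4 to 2 with normexp, 7 with no filter and 7 in the 1 Mb window. The limma fit compares fractions within genotype, as a block. No other pairing, by replicate number, was possible because each group holds 1 array. Spots not well above background limit all Lyz2 values in Dicer WT input and AGO2-RIP and the Lyz1 value in Dicer WT IgG-RIP.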

Other observations

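In the precipitates the host-defence lists also lay near the median of all genes, which was -0.03 in AGO2-RIP and -0.01 in IgG-RIP for Dicer KO minus Dicer WT. Of all genes 8.78% were past 2-fold higher and 11.2% lower in AGO2-RIP, and 12.9% and 12.1% in IgG-RIP. Of the peptidoglycan sensing genes 9 were measured in AGO2-RIP, with a median of -0.23, 0 past 2-fold higher and 2 lower, and 7 in IgG-RIP, with a median of 0.07, 0 higher and 1 lower. Of the phagocyte antimicrobial genes 12 were measured in AGO2-RIP, with a median of -0.22. Of 13 with a value there, bounds included, 1 was past 2-fold higher and 2 lower. In IgG-RIP 10 were measured, with a median of 0.07, and of 12 with a value 1 was higher and 2 lower. The measured myeloid transcription factor genes had a median of -0.26 in AGO2-RIP and 0.05 in IgG-RIP. Bounds included, 0 of 11 with a value were higher and 3 lower in AGO2-RIP, and 1 of 10 was higher and 3 lower in IgG-RIP.

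Markers of other cells were mostly dim. In input 0 of 5 mast and basophil markers, 0 to 1 of 5 B cell, 5 stromal and 6 T and NK cell markers, and 1 of 5 erythroid markers were well above background on an array. Of the 5 dendritic cell markers 1 was measured in both inputs, at -0.17 in Dicer KO minus Dicer WT. That was Siglech, which was bright, at 6.01 in Dicer WT input and 5.85 in Dicer KO input.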
